A study of Mus musculus with 258 samples.

Results

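Glutamate and GABA (gamma-aminobutyric acid) are amino acids that cells also use as signals, and the genes described here encode the receptors that bind them, the transporters that move them and the enzymes that make GABA. The genes were chosen by symbol alone, and 64 of the 40824 genes in the deposited count tables matched. They are 7 NMDA, 5 kainate, 4 AMPA and 2 delta receptor subunits, 8 metabotropic glutamate receptors, 19 GABA-A and 2 GABA-B receptor subunits, 2 glutamate decarboxylases, 4 vesicular transporters, 4 GABA transporters, and 7 transporters of glutamate or neutral amino acids.

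The study concerns the formation of hormone-producing cells in mouse embryos and the role in it of Jmjd3, a histone H3 demethylase encoded by Kdm6b. For bulk RNA, pairs of libraries were made from Ngn3-low cells and from Ngn3-high cells of E13.5 dorsal pancreas, separated by the brightness of an Ngn3-GFP reporter, and from Ins1-RFP positive cells of E17.5 pancreas, labelled as nascent beta cells. Single-cell RNA came from E13.5 dorsal pancreas, where the Ngn3-high gate gave 44 Jmjd3-deleted and 59 wild-type (WT) cells and the Ngn3-low gate gave 69 Jmjd3-deleted and 49 WT cells. Deleted cells carried Pdx1-Cre, a recombinase driven by a promoter active in pancreatic progenitors, and Jmjd3 fl/fl alleles. The labels name no Cre in WT cells, and what Cre does by itself cannot be told apart from the loss of Jmjd3.

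At a synapse, glutamate is loaded into vesicles by vesicular glutamate transporters, released, sensed by ion channels (NMDA, AMPA and kainate receptors) and by metabotropic receptors, and cleared by uptake carriers. GABA is made from glutamate by glutamate decarboxylase, opens chloride channels built from GABA-A subunits and acts through the G protein-coupled GABA-B receptor. Islet cells also hold parts of this machinery: beta cells contain GABA, and endocrine cells share many genes with neurons.

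Bulk libraries held 11957415 to 17760214 reads in genes, and a gene without a read has a floor of 3 counts, or 0.169 to 0.251 CPM (a gene's count scaled to a common library total) in a single library. The markers matched the gates: endocrine progenitor genes summed to 374 and 329.9 CPM in Ngn3-low libraries, 12055 and 13513 CPM in Ngn3-high and 8152 and 6710 CPM in Ins1-RFP libraries, and beta cell genes reached 100380 and 68526 CPM in Ins1-RFP libraries. Chgb held 8394 CPM of the progenitor sum in Ngn3-high library 1. In Ins1-RFP library 1, Chga held 4932 CPM and Chgb 2563 CPM of it. Neurog3 itself was at 1191 and 1090 CPM in Ngn3-high and 28.2 and 26.99 CPM in Ins1-RFP libraries. Neurod1 was at 255 and 331 CPM in Ngn3-high and 270 and 287 CPM in Ins1-RFP libraries. Other cell types were also present. White blood cell markers summed to 17.3 and 8.61 CPM in Ngn3-high against 1926 and 1602 CPM in Ngn3-low libraries, and endothelial markers to 8.66 and 5.94 CPM against 369 and 403 CPM. A neuron list of 10 genes summed to 188 and 180.1 CPM in Ngn3-high against 16.05 and 11.5 CPM in Ngn3-low libraries. Its members Rbfox3, at 85.5 and 63.98 CPM, and Elavl4, at 33.6 and 48.004 CPM, were higher in both Ngn3-high than in both Ngn3-low libraries. So were Snap25, Elavl3, Th and Nefl. Stmn2 was lower, at 0.18 and 0.17 CPM against 1.52 and 2.13 CPM, as was Prph, at 0.06 and 0.42 CPM against 0.90 and 0.90 CPM. The part of these cell types in the results was not tested. The Ins1-RFP libraries differed from each other, with acinar markers at 1108 CPM in library 1 and 18312 CPM in library 2. No label ties a library to a litter or animal, so p-values measure the spread between these libraries, which may be technical.

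Of the 64 genes, 31 reached 1 CPM in at least 1 bulk group, with 16 in Ngn3-low, 23 in Ngn3-high and 23 in Ins1-RFP cells. Grin2c, Grin3a and Grik5 were the 3 genes that reached 100 CPM in a group. Because CPM is not scaled by transcript length, families were compared as RPKM, which is CPM divided by the transcript length in kilobases. NMDA receptor genes summed to 22.3 RPKM in Ngn3-low, 76.5 RPKM in Ngn3-high and 18.8 RPKM in Ins1-RFP cells, and kainate receptor genes to 19.6, 46.2 and 34.5 RPKM at the same stages. Both families were carried mainly by 1 gene at each stage. In Ngn3-low cells Grin3a made up 96.1% of the NMDA receptor RPKM, whereas Grin2c made up 86.9% in Ngn3-high and 66.1% in Ins1-RFP cells. Grik5 held 88.8% to 97.2% of the kainate receptor RPKM at every stage.

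**Figure D1:**
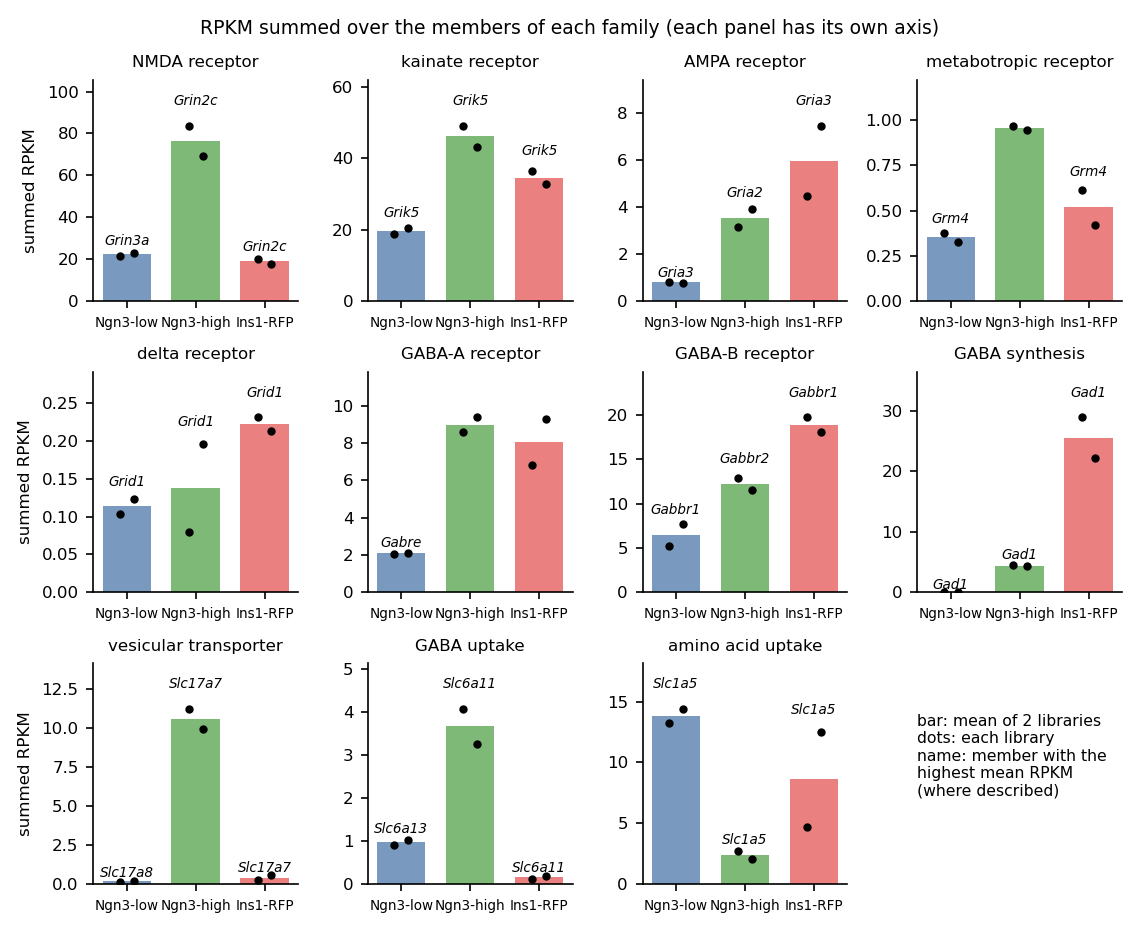
RPKM summed over the members of each family in the 3 bulk groups; bars are means of 2 libraries, dots are libraries, and a name above a bar is the member with the highest RPKM, where it is described in the text. NMDA and vesicular transporter genes peak in Ngn3-high cells (76.5 and 10.6 RPKM), GABA synthesis peaks in Ins1-RFP cells (25.6 RPKM), and amino acid uptake genes are lowest in Ngn3-high cells (2.41 RPKM).

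The first comparison asked how these genes differ between Ngn3-high endocrine progenitors and the Ngn3-low cells of the same day. Genes of several families were higher in Ngn3-high cells, among them Grin2c, Slc17a7, Slc6a11, Gad1, Gabbr2 and Grik2. By contrast, 3 of the 4 glutamate and neutral amino acid carriers that could be tested were lower. Of the 64 genes, 32 had enough reads for edgeR's quasi-likelihood test. Of these, 15 were higher and 5 lower at a Benjamini-Hochberg adjusted p below 0.05. Among all 15684 genes tested, 27.7% were called higher and 30.2% lower. The median log2 fold change of the 32 was 1.18, beside -0.01 over all genes tested, and a gene with reads in 1 group alone could enter this median only by differing. In bulk RNA, fewer cells of a type and less RNA per cell cannot be told apart, here and below.

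Among the receptor channels, Grin2c, an NMDA subunit that binds glutamate (chr11:115249169-115267297, GRCm38), had the largest log2 fold change of Ngn3-high over Ngn3-low. It had 3.27 and 2.45 CPM in Ngn3-low libraries, 364 and 287 CPM in Ngn3-high libraries and 62.2 and 59.7 CPM in Ins1-RFP libraries. No 2 groups overlapped, and the middle stage was highest. The log2 fold change was 6.88 (SE 0.20, adjusted p = 2.87e-07) for Ngn3-high over Ngn3-low and -2.34 (SE 0.15, adjusted p = 1.36e-05) for Ins1-RFP over Ngn3-high.

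Grin3a, an NMDA subunit that binds glycine and lowers the calcium flow of the channel (chr4:49661611-49846023), ran the other way, with 155 and 167 CPM in Ngn3-low libraries, 64.5 and 73.3 CPM in Ngn3-high and 2.32 and 1.57 CPM in Ins1-RFP libraries. Each stage was below the one before it. Its log2 fold change was -1.14 (SE 0.13, adjusted p = 0.000117) for Ngn3-high over Ngn3-low and -5.04 (SE 0.18, adjusted p = 1.21e-06) for Ins1-RFP over Ngn3-high. The gene Ppp3r2 lies within the same span, and reads of the pair may not be fully separated.

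Grin1, the subunit that every NMDA channel requires (chr2:25291177-25319187), did not follow Grin2c. It had 0.06 and 0.25 CPM in Ngn3-low libraries, 0.71 and 1.00 CPM in Ngn3-high and 27.9 and 18.9 CPM in Ins1-RFP libraries. The groups did not overlap, and the Ins1-RFP libraries stood far above both others, with a log2 fold change of 4.87 over Ngn3-high (SE 0.37, adjusted p = 2.76e-05). For Ngn3-high over Ngn3-low it was 2.64 (SE 0.65, adjusted p = 0.00808), a call lost without Ngn3-low library 1 (1.84). On the RPKM scale, Grin2c exceeded Grin1 in Ngn3-high cells at 66.6 against 0.20 RPKM, and in Ins1-RFP cells at 12.5 against 5.47 RPKM. An antisense gene, Grin1os, overlaps Grin1, and since the strand setting of the authors' counting is not given in the sources used here, reads of the 2 genes cannot be told apart.

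The remaining NMDA genes were low. Grin2d had 0.96 and 1.23 CPM in Ngn3-low libraries, 2.97 and 3.26 CPM in Ngn3-high and 2.95 and 2.54 CPM in Ins1-RFP libraries, and was higher in Ngn3-high than in Ngn3-low cells (log2 1.60, SE 0.34, adjusted p = 0.00373). Grin2b had 0.11 and 1.47 CPM in Ngn3-low libraries, 0.12 and 0.08 CPM in Ngn3-high and 2.51 and 2.83 CPM in Ins1-RFP libraries. Its Ngn3-low libraries disagreed with each other, and its call in Ins1-RFP over Ngn3-high cells (log2 4.66, SE 1.02, adjusted p = 0.00575) was lost without Ngn3-high library 1 (4.96) or library 2 (4.47). Grin2a and Grin3b stayed below 0.10 CPM in every group.

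Of the kainate receptor genes, Grik5, a subunit that needs a partner from Grik1, Grik2 or Grik3 to form a channel, was the most abundant by RPKM. It had 67.7 and 73.7 CPM in Ngn3-low libraries, 169 and 146 CPM in Ngn3-high and 136 and 121 CPM in Ins1-RFP libraries. Ngn3-high and Ins1-RFP cells were both above Ngn3-low cells (log2 1.24, SE 0.12, adjusted p = 5.05e-05, and 1.03, SE 0.12, adjusted p = 0.00012), while Ins1-RFP cells did not pass the test against Ngn3-high cells (log2 -0.21, SE 0.12, adjusted p = 0.183).

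The partner subunit Grik2, which forms kainate channels by itself (chr10:49093680-49790161), peaked in the middle stage. It had 0.62 and 0.82 CPM in Ngn3-low libraries, 19.4 and 20.2 CPM in Ngn3-high and 0.31 and 0.67 CPM in Ins1-RFP libraries. The Ngn3-high libraries alone were above 1 CPM, with log2 fold changes of 4.87 over Ngn3-low (SE 0.32, adjusted p = 4.50e-06) and -5.26 for Ins1-RFP over Ngn3-high (SE 0.34, adjusted p = 1.27e-05). Grik3, another such partner, had 0.28 and 0.33 CPM in Ngn3-low libraries, 3.44 and 3.01 CPM in Ngn3-high and 2.95 and 4.55 CPM in Ins1-RFP libraries, so that it was above Ngn3-low at both later stages. Grik4, a relative of Grik5, had 4.79 and 6.13 CPM in Ngn3-low libraries, 3.68 and 3.76 CPM in Ngn3-high and 1.95 and 2.09 CPM in Ins1-RFP libraries, and was lower in Ins1-RFP than in Ngn3-low cells (log2 -1.26, SE 0.28, adjusted p = 0.00404). Grik1 reached no more than 0.28 CPM in any group.

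AMPA receptor genes were represented by Gria2, the subunit that limits calcium entry, and Gria3. Gria2 had 1.13 and 1.06 CPM in Ngn3-low libraries, 16.96 and 18.5 CPM in Ngn3-high and 9.99 and 18.5 CPM in Ins1-RFP libraries, and was higher in Ngn3-high than in Ngn3-low cells (log2 4.08, SE 0.35, adjusted p = 1.91e-05). Gria3 had 2.93 and 3.03 CPM in Ngn3-low libraries, 2.97 and 5.10 CPM in Ngn3-high and 15.1 and 23.9 CPM in Ins1-RFP libraries. For Gria2 the Ngn3-high and Ins1-RFP libraries overlapped. For Gria3 the Ngn3-high and Ngn3-low libraries overlapped, and Ins1-RFP was above Ngn3-high (log2 2.37, SE 0.32, adjusted p = 0.000492). Gria1 and Gria4 peaked at 0.44 and 0.52 CPM.

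Most metabotropic glutamate receptors were close to the floor. Grm4, a receptor that lowers cyclic AMP, had 0.73 to 1.70 CPM across the 6 libraries and was called in no comparison. Grm2 reached 0.89 CPM in Ngn3-high cells, and Grm3, Grm5, Grm6, Grm7 and Grm8 peaked at 0.03 to 0.46 CPM. The delta receptor Grid1 peaked at 1.12 CPM in Ins1-RFP cells without a call.

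**Figure D2:**
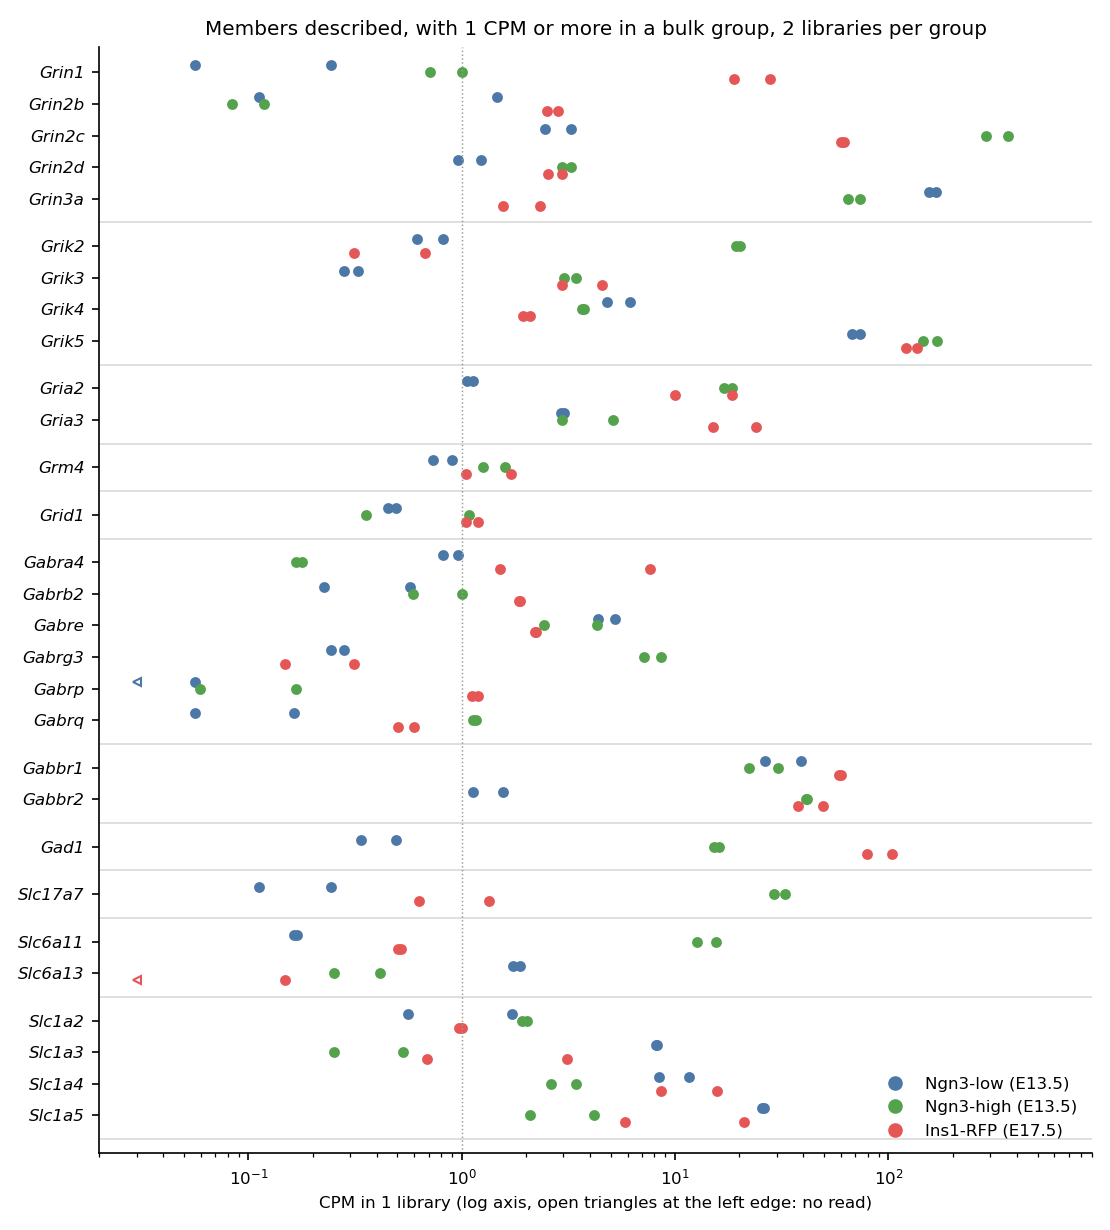
CPM of 29 members that reached 1 CPM in a bulk group, on a log axis, with 1 dot per library and open triangles for libraries without a read. Grin2c, Grik2, Slc17a7, Slc6a11 and Gabrg3 have their highest dots in Ngn3-high libraries, while Grin1, Gad1 and Gria3 have theirs in Ins1-RFP libraries.

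Among transporters, Slc17a7, which loads glutamate into vesicles and is also called VGLUT1 (chr7:45163921-45176139), had 0.11 and 0.25 CPM in Ngn3-low libraries, 32.9 and 29.02 CPM in Ngn3-high and 0.63 and 1.34 CPM in Ins1-RFP libraries. Its Ngn3-high libraries were far above the other 4, with log2 fold changes of 7.54 over Ngn3-low (SE 0.42, adjusted p = 1.88e-06) and -4.91 for Ins1-RFP over Ngn3-high (SE 0.33, adjusted p = 1.42e-05). Slc6a11, a GABA uptake carrier also called GAT3 (chr6:114131241-114249886), had the same shape. It had 0.17 and 0.16 CPM in Ngn3-low libraries, 15.6 and 12.7 CPM in Ngn3-high and 0.50 and 0.52 CPM in Ins1-RFP libraries, with log2 fold changes of 6.42 (SE 0.36, adjusted p = 2.15e-06) and -4.69 (SE 0.31, adjusted p = 1.38e-05) in the same 2 comparisons. Gabrg3, a gamma subunit of the GABA-A receptor (chr7:56716463-57387215), had 0.28 and 0.25 CPM in Ngn3-low libraries, 7.12 and 8.61 CPM in Ngn3-high and 0.31 and 0.15 CPM in Ins1-RFP libraries, with log2 fold changes of 4.92 (SE 0.42, adjusted p = 2e-05) and -4.92 (SE 0.43, adjusted p = 5.15e-05). Its span holds 4 pseudogenes.

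Grin2c, Slc17a7, Grik2, Slc6a11 and Gabrg3 were each called higher in Ngn3-high over Ngn3-low and lower in Ins1-RFP over Ngn3-high cells, while Gad1 and Grin1 were called higher in each comparison. The 2 comparisons share the Ngn3-high libraries, so an error in those libraries enters both with opposite sign. Promoters are shown for the 3 of these named genes whose RefSeq window (GRCm38.p6) lies outside the gene's annotated span, with that of Grin1, which kept rising, beside them. Capitals mark CANNTG, the E-box that binds basic helix-loop-helix factors such as Neurog3 and Neurod1 and that reads the same on both strands. The 250 bases before the start are given 5′ to 3′ on the gene's strand: chr7:45163671-45163920 (plus strand) for Slc17a7, chr6:114130991-114131240 (plus strand) for Slc6a11, chr7:57387216-57387465 (minus strand) for Gabrg3 and chr2:25319188-25319437 (minus strand) for Grin1.
Slc17a7: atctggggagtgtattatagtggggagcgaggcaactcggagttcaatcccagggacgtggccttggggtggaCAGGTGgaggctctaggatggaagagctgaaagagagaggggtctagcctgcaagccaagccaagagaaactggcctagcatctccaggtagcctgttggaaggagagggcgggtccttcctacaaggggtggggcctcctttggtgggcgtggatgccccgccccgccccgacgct
Slc6a11: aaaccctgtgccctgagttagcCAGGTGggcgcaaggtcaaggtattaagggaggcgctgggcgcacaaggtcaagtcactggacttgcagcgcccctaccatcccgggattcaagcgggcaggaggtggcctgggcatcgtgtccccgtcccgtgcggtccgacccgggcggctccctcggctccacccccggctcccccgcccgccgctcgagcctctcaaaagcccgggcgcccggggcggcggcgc
Gabrg3: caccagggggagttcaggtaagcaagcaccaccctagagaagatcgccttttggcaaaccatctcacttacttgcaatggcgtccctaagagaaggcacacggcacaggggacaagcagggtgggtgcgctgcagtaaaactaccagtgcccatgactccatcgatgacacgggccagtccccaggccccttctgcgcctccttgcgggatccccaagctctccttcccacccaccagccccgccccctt
Grin1: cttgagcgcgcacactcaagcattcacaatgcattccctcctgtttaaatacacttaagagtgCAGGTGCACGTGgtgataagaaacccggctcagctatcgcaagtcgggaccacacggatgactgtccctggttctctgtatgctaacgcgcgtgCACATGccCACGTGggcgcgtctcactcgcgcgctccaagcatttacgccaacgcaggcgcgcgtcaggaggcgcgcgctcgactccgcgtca

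Slc17a7 and Slc6a11 each held 1 E-box, CAGGTG in both, which began 177 and 228 bases before the start. Grin1 held 4 and Gabrg3 held 0, none overlapping another. An E-box occurred in 66.2% of all 32851 RefSeq promoter windows of this length, so its presence does not set these promoters apart. The form CAGATG, or CATCTG on the other strand, which neurogenins are known to favour, was in 14.4% of all windows and in none of the 4 shown.

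GABA synthesis was carried by Gad1, the larger form of glutamate decarboxylase (chr2:70561303-70602014). Gad1 had 0.34 and 0.49 CPM in Ngn3-low libraries, 16.1 and 15.2 CPM in Ngn3-high and 104 and 79.4 CPM in Ins1-RFP libraries. Each stage was above the one before it without overlap, by a log2 fold change of 5.34 for Ngn3-high over Ngn3-low (SE 0.28, adjusted p = 1.42e-06) and 2.64 for Ins1-RFP over Ngn3-high (SE 0.17, adjusted p = 1.29e-05). An antisense gene, Gad1os, overlaps it. Its relative Gad2 had no read in Ngn3-low libraries and at most 0.75 CPM elsewhere. The other genes of GABA release and recapture were near the floor: the vesicular GABA transporter Slc32a1 peaked at 0.04 CPM and the betaine and GABA carrier Slc6a12 at 0.28 CPM. Slc6a13, a GABA carrier also called GAT2, had 1.75 and 1.88 CPM in Ngn3-low libraries, 0.42 and 0.25 CPM in Ngn3-high and 0 and 0.15 CPM in Ins1-RFP libraries, and was lower in Ngn3-high than in Ngn3-low cells (log2 -2.29, SE 0.60, adjusted p = 0.0108), a call lost in DESeq2's test (-2.33) and without Ngn3-high library 2 (-2.01). The vesicular glutamate transporter Slc17a8 peaked at 0.46 CPM, and Slc17a6 had no read in any bulk library.

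For the GABA-B receptor, which works as a pair of Gabbr1, the GABA-binding subunit, and Gabbr2, the subunit that couples to G proteins, the 2 genes had different stages. Gabbr1 was present throughout, with 26.4 and 39.02 CPM in Ngn3-low libraries, 30.2 and 22.2 CPM in Ngn3-high and 58.4 and 60.2 CPM in Ins1-RFP libraries. The first 2 groups overlapped, and Ins1-RFP cells were above Ngn3-high cells (log2 1.25, SE 0.20, adjusted p = 0.00135). Gabbr2 had 1.13 and 1.55 CPM in Ngn3-low libraries, 41.2 and 41.7 CPM in Ngn3-high and 49.6 and 37.7 CPM in Ins1-RFP libraries. Its log2 fold change was 5.05 for Ngn3-high over Ngn3-low (SE 0.23, adjusted p = 7.83e-07), and the 2 later groups overlapped. By RPKM, Gabbr1 exceeded Gabbr2 in Ngn3-low cells at 6.23 against 0.23, while the 2 were at 5.001 and 7.22 in Ngn3-high cells and at 11.3 and 7.61 in Ins1-RFP cells.

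Of the 19 GABA-A subunit genes, 8 could be tested, of which 3 were higher and 0 lower in Ngn3-high than in Ngn3-low cells, and 3 higher and 1 lower in Ins1-RFP than in Ngn3-high cells. Over all genes tested, 27.7% were higher and 30.2% lower in the first comparison and 26.1% and 24.9% in the second, so the shares called higher were not far from those of all genes. The family summed to 2.08 RPKM in Ngn3-low, 8.97 RPKM in Ngn3-high and 8.06 RPKM in Ins1-RFP cells. Gabra4, the only alpha gene with a group mean of 1 CPM, had 0.96 and 0.82 CPM in Ngn3-low libraries, 0.18 and 0.17 CPM in Ngn3-high and 1.51 and 7.61 CPM in Ins1-RFP libraries. The Ins1-RFP libraries disagreed, with library 2 far above library 1, and both were above the Ngn3-high libraries (log2 4.71, SE 0.89, adjusted p = 0.00285). Gabra2, Gabra3 and Gabra5 peaked at 0.09 to 0.34 CPM, and Gabra6 had no read.

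Gabrp, the pi subunit, had 0.06 and 0 CPM in Ngn3-low libraries, 0.06 and 0.17 CPM in Ngn3-high and 1.19 and 1.12 CPM in Ins1-RFP libraries (log2 3.44 for Ins1-RFP over Ngn3-high, SE 0.71, adjusted p = 0.00436). Gabrb2, a beta subunit, averaged 1.87 CPM in Ins1-RFP and 0.80 CPM in Ngn3-high cells (log2 1.34, SE 0.49, adjusted p = 0.0476), a call near the threshold. Gabrq, the theta subunit, averaged 1.15 CPM in Ngn3-high and 0.11 CPM in Ngn3-low cells (log2 3.47, SE 0.64, adjusted p = 0.00182). Gabre, the epsilon subunit, had 5.24 and 4.34 CPM in Ngn3-low libraries, 4.33 and 2.43 CPM in Ngn3-high and 2.20 and 2.24 CPM in Ins1-RFP libraries, and led the family in Ngn3-low cells at 1.11 RPKM. Gabrb1, Gabrd, Gabrg1 and Gabrr2 peaked at 0.07 to 0.40 CPM, and Gabrr1 and Gabrr3 had no read.

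Of the 7 carriers of glutamate and neutral amino acids, 4 could be tested, and 3 of these were lower in Ngn3-high than in Ngn3-low cells. Slc1a3, a glutamate carrier known from astrocytes, had 8.11 and 8.26 CPM in Ngn3-low libraries, 0.53 and 0.25 CPM in Ngn3-high and 0.69 and 3.13 CPM in Ins1-RFP libraries. Slc1a5, which carries glutamine and other neutral amino acids, had 25.5 and 26.2 CPM in Ngn3-low libraries, 4.15 and 2.09 CPM in Ngn3-high and 5.84 and 21.03 CPM in Ins1-RFP libraries. Slc1a4, a carrier of alanine, serine and cysteine, had 8.45 and 11.6 CPM in Ngn3-low libraries, 2.61 and 3.43 CPM in Ngn3-high and 8.60 and 15.7 CPM in Ins1-RFP libraries. The log2 fold changes of Ngn3-high over Ngn3-low were -4.21 (SE 0.68, adjusted p = 0.000832) for Slc1a3, -2.93 (SE 0.56, adjusted p = 0.00212) for Slc1a5 and -1.65 (SE 0.34, adjusted p = 0.00314) for Slc1a4. Slc1a2 averaged 1.97 CPM in Ngn3-high and 1.14 CPM in Ngn3-low cells without a call, and Slc1a1, Slc1a6 and Slc1a7 peaked at 0.06 to 0.56 CPM.

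The Ngn3-low libraries in which these carriers were high also held the white blood cell markers, and the part of those cells in the bulk levels was not tested. In the single WT Ngn3-low cells, where those markers summed to 4.14 CPM, Slc1a3 stood at 23.6 CPM, Slc1a5 at 21.5 CPM and Grin3a at 123 CPM. Single Ngn3-low cells held acinar markers, at 1889 CPM in deleted and 1550 CPM in WT cells, beside 67.5 and 25.1 CPM in deleted and WT Ngn3-high cells, and the part of these in the carriers' levels was not tested.

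**Figure D3:**
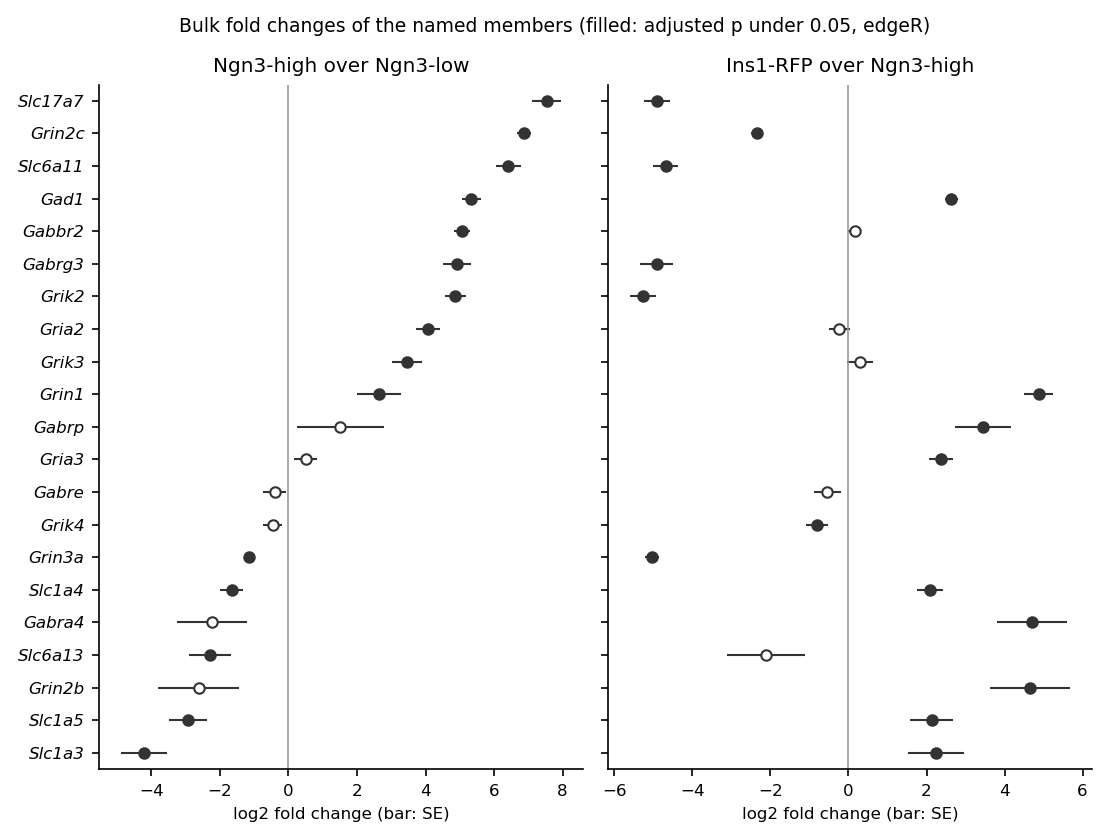
Log2 fold changes (points) with their standard errors (bars) for 21 named members in 2 bulk comparisons, which share the Ngn3-high libraries; filled points passed an adjusted p of 0.05 in edgeR's test. Gad1 and Grin1 lie right of 0 in both panels, Grin3a left of 0 in both, and Slc17a7, Grin2c, Slc6a11, Gabrg3 and Grik2 right in the first and left in the second.

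The second comparison asked what distinguishes Ins1-RFP cells from Ngn3-high cells. GABA synthesis and the NMDA subunit Grin1 were higher in Ins1-RFP cells, as were Gria3, Gabbr1 and Gabra4. Among the genes called lower were Grin2c, Slc17a7, Grik2, Slc6a11, Gabrg3 and Grin3a. Gria2, Grik5, Gabrq and Grin2d had their highest mean in Ngn3-high cells but were not called in this comparison. Of the 32 genes tested, 11 were called higher and 8 lower, beside 26.1% and 24.9% of all genes tested. The median log2 fold change of the 32 was -0.03, beside 0.01 over all genes. Against Ngn3-low cells, 19 were higher and 5 lower in Ins1-RFP cells, beside 30.4% and 35.5% of all genes.

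Ins1-RFP library 2, which held the acinar markers at 18312 CPM, was also the higher of the pair for Slc1a3, Slc1a4, Slc1a5, Gabra4 and Gria3. It differed from library 1 in other markers too. Mesenchyme markers were at 699.8 against 184 CPM in library 1, other islet cell markers at 4063 against 2020 CPM and red blood cell markers at 121 against 47.9 CPM. Beta cell markers were lower in library 2, at 68526 against 100380 CPM. The part of any of these cell types in the gene levels was not tested. Without that library, the log2 fold change of Ins1-RFP over Ngn3-high was 0.83 in place of 2.24 for Slc1a3 and 0.95 in place of 2.13 for Slc1a5, with the first no longer called. It was 1.62 in place of 2.09 for Slc1a4, 3.15 in place of 4.71 for Gabra4 and 2.03 in place of 2.37 for Gria3, all still called. Gad1 stood at 2.83 and Grin1 at 5.14 without it, beside 2.64 and 4.87 with it. Leaving out Ngn3-high library 2 also ended the calls of Slc1a5 (1.75) and Slc1a3 (1.87), and leaving out Ngn3-high library 1 that of Slc1a3 (2.96).

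Proteins that work with the receptors were read from lists of 19 auxiliary subunits and 22 scaffold and clustering proteins. Of the 13 auxiliary genes tested, 6 were higher and 2 lower in Ngn3-high than in Ngn3-low cells, with a median log2 of 1.85, beside 27.7% and 30.2% of all genes tested and their median of -0.01. Here and for the scaffold genes below, a gene with reads in 1 group alone could enter the counts and medians only by differing. Cnih2, a cornichon protein that escorts AMPA receptors, had 35.1 and 39.7 CPM in Ngn3-high against 1.63 and 1.47 CPM in Ngn3-low libraries (log2 4.65, adjusted p = 6.78e-07). Gsg1l, another AMPA auxiliary subunit, had 12.8 and 10.3 CPM in Ngn3-high against 0.34 and 0.16 CPM in Ngn3-low libraries, and Cacng4 had 22.8 and 18.1 CPM against 1.80 and 1.31 CPM. Lhfpl4, which is needed for GABA-A receptor clustering, had 42.5 and 37.95 CPM in Ins1-RFP against 7.00 and 6.61 CPM in Ngn3-high libraries. Kctd12, a GABA-B auxiliary subunit, was lower in Ngn3-high, at 155 and 200 CPM against 361 and 330 CPM in Ngn3-low libraries.

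Of the 20 scaffold genes tested, 11 were higher and 2 lower in Ngn3-high than in Ngn3-low cells, with a median log2 of 0.36, beside the same 27.7%, 30.2% and -0.01 for all genes tested. Dlg4, the postsynaptic density protein that anchors NMDA receptors, had 129 and 113 CPM in Ngn3-high against 26.5 and 25.7 CPM in Ngn3-low libraries (log2 2.29, adjusted p = 3.02e-06). Shank2 was lower, at 33.4 and 31.4 CPM in Ngn3-high against 143 and 163 CPM in Ngn3-low libraries. Gphn, which encodes the GABA-A and glycine receptor anchor gephyrin, was called in no comparison.

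Among the 15 genes of glutamate and GABA metabolism, 3 were higher and 3 lower in Ngn3-high than in Ngn3-low cells, and 7 higher and 3 lower in Ins1-RFP than in Ngn3-high cells. Of all genes tested, 27.7% and 30.2% were called in the first comparison and 26.1% and 24.9% in the second, so the first counts do not set these genes apart. Abat, which degrades GABA, had 18.4 and 23.2 CPM in Ngn3-low libraries, 41.5 and 48.2 CPM in Ngn3-high and 117 and 108 CPM in Ins1-RFP libraries, and so followed the order of Gad1. Glud1, glutamate dehydrogenase, peaked in Ngn3-high cells, with 307 and 320.5 CPM in Ngn3-low libraries, 1046 and 1277 CPM in Ngn3-high and 266 and 323 CPM in Ins1-RFP libraries. Of the chloride transporters that set the direction of the GABA-A current, Slc12a2, which brings chloride in, had 29.95 and 35.8 CPM in Ngn3-high against 79.6 and 85.9 CPM in Ngn3-low libraries. Slc12a5, which moves chloride out, had 40.4 and 35.9 CPM in Ins1-RFP against 18.6 and 11.8 CPM in Ngn3-high libraries. Of 7 glycine receptor and transporter genes, Glrb and Slc6a9 could be tested, and neither was called by edgeR; for Slc6a9 the log2 fold change of Ins1-RFP over Ngn3-high was 1.40 (adjusted p = 0.081).

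In single cells, the targeted gene was read first. Kdm6b, the gene floxed in deleted cells, stood at 107 CPM in Jmjd3-deleted and 265 CPM in WT Ngn3-high cells, and at 55.5 CPM in deleted and 131 CPM in WT Ngn3-low cells. Counts cover the whole gene, so they do not show whether the floxed part was lost in each cell. Each single-cell group counts as 1 sample, because no label names an animal, and no test was made. Reads were summed per group, intervals are exact 95% Poisson or binomial (Clopper-Pearson) intervals that cover counting error only, and a cell was counted as having a gene at 10 CPM or more. The median depth was 708409 reads in genes per cell. Of the 64 genes, 31 reached 1 CPM in a group, while 12 had no read in any of the 221 cells.

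In reads summed over each group of single cells, the Ngn3-high pattern of the bulk libraries was present for part of the set. Among WT cells, 13 genes had 5 CPM or more in either group; of these, 6 were past 2-fold higher and 4 past 2-fold lower in Ngn3-high cells, beside 14% and 19% of all genes at that level. Among deleted cells, the counts were 5 higher and 4 lower of 11, beside 15.3% and 18.7%. Grin2c, Grik2, Gad1 and Gabbr2 were past 2-fold higher in both genotypes, and Slc1a3, Slc1a4 and Slc1a5 past 2-fold lower in both. Without the cell that gave a gene most of its reads in each group, Gabbr2 and Slc17a7 no longer counted among deleted cells, nor did Gabrg3 among WT cells.

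Grin2c was the most widespread. It stood at 46.5 CPM (44.1 to 48.9) in deleted and 73.8 CPM (71.3 to 76.4) in WT Ngn3-high cells, against 0.02 and 0.06 CPM in deleted and WT Ngn3-low cells. It was present in 23 of 44 deleted Ngn3-high cells (52.3%, interval 36.7 to 67.5) and 40 of 59 WT Ngn3-high cells (67.8%, interval 54.4 to 79.4), and in 0 of 69 deleted and 0 of 49 WT Ngn3-low cells, which allows up to 5.21% and 7.25%. With every cell thinned to the depth of the shallowest one, the shares were 50% and 66.1% of deleted and WT Ngn3-high cells.

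Gad1 was restricted to a smaller share of the Ngn3-high cells. Its level was 31.1 CPM in deleted and 19.1 CPM in WT Ngn3-high cells, and 0.06 CPM in both Ngn3-low groups. It was present in 15 of 44 deleted (34.1%) and 13 of 59 WT Ngn3-high cells (22.03%), and in no Ngn3-low cell at 10 CPM. Grik2 was present in 16 of 44 deleted (36.4%) and 17 of 59 WT Ngn3-high cells (28.8%), with 33.01 and 25.5 CPM, and in 1 of 69 deleted and 0 of 49 WT Ngn3-low cells. Slc17a7 stood at 5.02 CPM in deleted and 4.96 CPM in WT Ngn3-high cells, in 10 of 44 and 9 of 59 cells, and had no read in any Ngn3-low cell. Slc6a11 stood at 3.01 CPM in deleted and 1.88 CPM in WT Ngn3-high cells, and at 0 and 0.03 CPM in deleted and WT Ngn3-low cells. Thinning left the shares of Gad1 and Grik2 in Ngn3-high cells as they were.

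Both GABA-B genes and Grik5 were found in both gates. Gabbr2 stood at 7.22 CPM in deleted and 7.65 CPM in WT Ngn3-high cells, against 2.84 and 0.96 CPM in deleted and WT Ngn3-low cells. Grik5 stood at 8.15 CPM in deleted and 7.67 CPM in WT Ngn3-high cells, against 4.95 and 7.48 CPM in deleted and WT Ngn3-low cells, and was not past 2-fold. Gabre and Grik4 reached 6.00 and 4.87 CPM at most in a group, and Gria2, Gria3, Gabra4, Grik3 and Grin2b ranged up to 2.80 CPM, while Gabrp had no read in any cell.

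At 10 CPM or more, these genes were not found in the same cells throughout. Whether a gene was missed in a cell at this depth was not tested. Of the WT Ngn3-high cells, 10 of 13 with Gad1, 14 of 17 with Grik2 and 8 of 9 with Slc17a7 also had Grin2c, where 40 of all 59 did. Gad1 and Grik2 shared 4 WT cells, or 30.8% of those with Gad1 and 23.5% of those with Grik2. Of all 59 WT cells, 17 had Grik2 and 13 had Gad1, so this overlap does not set the cells with either gene apart. In deleted Ngn3-high cells, 8 of 15 with Gad1 and 11 of 16 with Grik2 also had Grin2c, where 23 of all 44 did. Cells of a group share a sort and a library method, and these counts are a description.

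Cells with Grin1 together with another NMDA subunit gene were rare at this depth. Grin1 was at 10 CPM in 2 deleted Ngn3-high cells, 0 WT Ngn3-high cells, 0 deleted Ngn3-low cells and 1 WT Ngn3-low cell, and it was together with a Grin2 or Grin3 gene in 1, 0, 0 and 1 of them. A Grin2 or Grin3 gene was present in 29 of 44 deleted and 48 of 59 WT Ngn3-high cells, and in 19 of 69 deleted and 24 of 49 WT Ngn3-low cells. The median cell held 3 of the 64 genes in either Ngn3-high group and 2 in either Ngn3-low group.

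Across cells, Grin2c ran with Neurog3 (Spearman rho 0.43 over 44 deleted and 0.37 over 59 WT Ngn3-high cells) and showed rho of -0.12 and 0.07 with the reads per cell in the same groups. Grin3a had rho of -0.41 and -0.63 with Neurod1, in deleted and WT Ngn3-high cells. The rho of Slc17a7 with Neurog3 was 0.44 in deleted and 0.21 in WT cells. Both values of a pair come from the same cell and library.

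**Figure D4:**
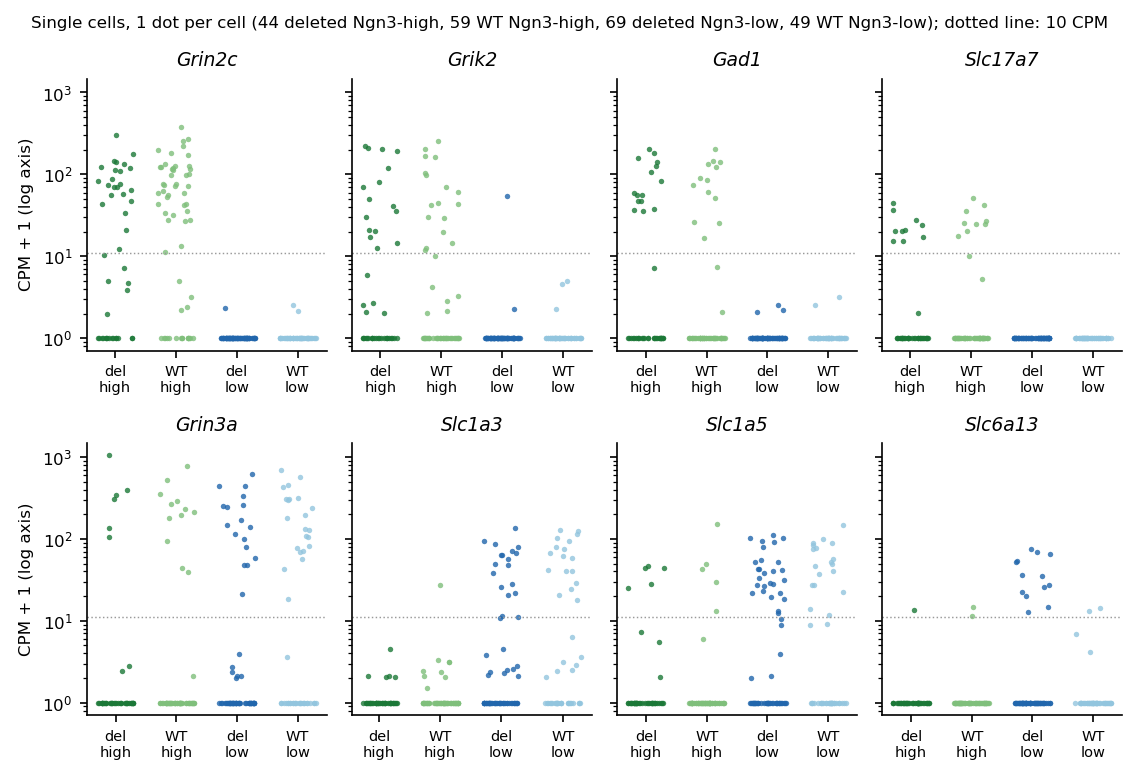
CPM plus 1 in each cell on a log axis for 8 genes; columns are Jmjd3-deleted (del) and WT Ngn3-high, then deleted and WT Ngn3-low cells, and the dotted line marks 10 CPM. Grin2c, Grik2, Gad1 and Slc17a7 rise above the line almost only in Ngn3-high cells, Slc1a3 and Slc1a5 mainly in Ngn3-low cells, Grin3a in all 4 groups, and Slc6a13 mainly in deleted Ngn3-low cells (13 of 69).

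Grin3a was spread over all 4 groups, and in Ngn3-high cells it sat in few cells at high level. It stood at 51.2 CPM in deleted and 52.6 CPM in WT Ngn3-high cells, in 6 of 44 (13.6%) and 12 of 59 cells (20.3%). In Ngn3-low cells it stood at 46.96 CPM in deleted and 123 CPM in WT cells, in 17 of 69 (24.6%, interval 15.1 to 36.5) and 22 of 49 cells (44.9%, interval 30.7 to 59.8). Deleted Ngn3-high cells ranged up to 1045 CPM, and 1 cell gave 35.2% of that group's Grin3a reads.

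Slc1a3 stood at 0.19 CPM in deleted and 0.67 CPM in WT Ngn3-high cells, against 15.5 CPM in deleted and 23.6 CPM in WT Ngn3-low cells, where 18 of 69 and 17 of 49 cells had it. Slc1a5 stood at 3.63 and 3.33 CPM in deleted and WT Ngn3-high cells, against 17.4 and 21.5 CPM in deleted and WT Ngn3-low cells, where 27 of 69 and 18 of 49 cells had it. Slc1a4 stood at 3.63 CPM in deleted and 0.69 CPM in WT Ngn3-high cells, against 9.63 CPM in deleted and 8.47 CPM in WT Ngn3-low cells; a single deleted Ngn3-high cell gave 77.8% of its group's reads. The lower level of these 3 carriers in Ngn3-high cells was thus present in both genotypes.

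The last comparison set deleted against WT cells of the same gate, which asks what the loss of Jmjd3 changes. In Ngn3-low cells, 1 gene was higher and 1 lower of 8 at 5 CPM, beside 1.7% and 2.65% of all genes, and in Ngn3-high cells 0 were higher and 3 lower of 10, beside 2.96% and 2.76%. With so few genes at 5 CPM and no replicate check, these shares rest on 2 and 3 genes. Titles give each cell a number whose meaning the labels do not explain. Within the title numbers that both genotypes share, the genes past 2-fold in either direction numbered 7, 5 and 5 in Ngn3-low cells and 7, 9 and 12 in Ngn3-high cells.

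Slc6a13 was the gene higher in deleted Ngn3-low cells, at 7.10 CPM (6.39 to 7.86) against 0.65 CPM (0.40 to 0.99) in WT Ngn3-low cells. It was present in 13 of 69 deleted cells (18.8%, interval 10.4 to 30.1) and 2 of 49 WT cells (4.08%, interval 0.50 to 13.98), and in 17.4% and 4.08% after thinning. Within the shared title numbers, Slc6a13 stood at 13.04 CPM in deleted and 0 CPM in WT cells of number 1, at 4.75 and 1.62 CPM in number 2, and at 4.85 and 0 CPM in number 5. The deleted cells were above the WT cells in each, with 18, 36 and 15 deleted cells but only 10, 13 and 5 WT cells.

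Grin3a was the gene lower in deleted Ngn3-low cells, at 46.96 CPM (45.1 to 48.9) against 123 CPM (119 to 127) in WT Ngn3-low cells. Within shared title numbers it was at 54.1 CPM in deleted and 253 CPM in WT cells of number 1, at 31.8 and 87.6 CPM in number 2 and at 86.8 and 204 CPM in number 5. WT cells of number 4, which has no deleted counterpart, were at 1.25 CPM over 14 cells, so WT cells also differed among themselves. As a mean over cells rather than of summed reads, the difference did not pass 2-fold.

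In Ngn3-high cells, Gabrg3 and Gabbr1 were among the genes past 2-fold lower in deleted cells. Gabrg3 was at 3.01 CPM in deleted and 8.96 CPM in WT Ngn3-high cells, but title number 5 had the opposite order, at 7.95 CPM in deleted and 4.14 CPM in WT cells, and without the cell with most reads in each group it no longer met the rule of 5 CPM and 2-fold. Gabbr1 was at 1.98 CPM in deleted and 8.18 CPM in WT Ngn3-high cells, in 3 of 44 and 9 of 59 cells, and title number 5 held 0.64 CPM in deleted and 0 CPM in WT cells.

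Grin2c, Gad1, Grik2, Slc17a7, Gabbr2, Grin3a and Grik5 were not past 2-fold between deleted and WT Ngn3-high cells. For Grin2c the log2 ratio of deleted over WT was -0.66, and by title number it was at 44.1 CPM in deleted and 60.1 CPM in WT cells of number 1, at 55.6 and 46.8 CPM in number 5 and at 41.2 and 119 CPM in number 6. The genotypes therefore changed order between numbers. For Gad1 the log2 ratio was 0.68, with 32.2 CPM in deleted and 13.8 CPM in WT cells of number 1, 18.3 and 33.8 CPM in number 5 and 46.8 and 19.6 CPM in number 6, again in both orders. With 1 sample per group, a difference of genotype cannot be told apart from a difference between the embryos or sorts.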

How the data were processed

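The authors deposited whole-number read counts per gene, made with TopHat2 2.1.0, Bowtie2 and HTSeq 0.6.0 on build mm10, per the submitters' processing notes. Per the labels' protocols, bulk libraries were poly(A)-selected with a directional kit and single cells were made with Smart-seq2 without molecular identifiers. The strand setting of the counting is not given in the sources used here. The 92 ERCC entries of 40916 were left out, 0 columns were unmapped, and deposited RPKM files were not used, RPKM being computed from counts and deposited lengths. Chromatin samples (31) were not analysed here.

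Bulk counts were tested with edgeR 4.0.16 in R 4.3.3 (trimmed-mean factors, its expression filter, quasi-likelihood test over 6 libraries, Benjamini-Hochberg adjustment over 15684 genes), which was tested on simulated data. DESeq2 1.42.0 served as an alternative. Single-cell reads were summed per group, with 1 CPM added to each side of a ratio and 5 CPM asked of the higher group. All 64 members were matched in RefSeq, and 47 had a promoter window. Replicate numbers give 2 libraries per group. Differences between libraries of a group exceeded counting noise (chi-square per degree of freedom 12.9 to 57.9).

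Genes named with full values were Gad1 and Slc17a7, fixed with 5 others that stayed under 1 CPM, and up to 8 called members with the largest change in each direction of each comparison, at 1 CPM or more. Others are given once. The same genes, with members at 5 CPM or more and in 10% of cells, were read in single cells. The members, marker lists and pathway lists were chosen with earlier results of these data known. For the lists of other cell types, bulk sums were 63.0 to 699.8 CPM for mesenchyme, 11.5 to 188 CPM for neurons, 47.3 to 490 CPM for neural crest and glia, 163 to 564 CPM for mesothelium, 7.28 to 121 CPM for red blood cells, 322 to 624 CPM for liver, 287 to 1826 CPM for trunk and duct and 397 to 4063 CPM for other islet cells. In Ngn3-high library 1, Krt7 alone held 560 CPM of the mesothelium sum and Ttr 586 CPM of the liver sum. The next highest gene of either list there was Afp, at 16.1 CPM. In Ngn3-low library 2, the liver sum also held Afp at 274 CPM and Alb at 111 CPM. Of the neuron list, Phox2a stayed below 1 CPM in every library. Some genes of the set and of the lists are counted in sums and totals but not reported here by name.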

Additional observations from a re-analysis of the deposited data

How the results depend on the processing

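Of the alternatives for the 6 bulk counts of called genes, 1 moved a count by over 1.5 times: without Ngn3-high replicate 2, 7 genes were higher in Ins1-RFP over Ngn3-high cells in place of 11, with Gabrb2, Grin2b, Slc1a3 and Slc1a5 lost. Leaving out each library in turn gave 14 to 16 higher and 4 to 6 lower for Ngn3-high over Ngn3-low, 7 to 11 and 6 to 8 for Ins1-RFP over Ngn3-high, and 15 to 19 and 4 to 5 for Ins1-RFP over Ngn3-low. With a replicate block the counts were 15 and 5, 11 and 7, and 19 and 5. Deviations of same-numbered libraries correlated at 0.07, 0.09 and 0.03. With 2 libraries per group, these values cannot show whether same-numbered libraries share a litter, sort or day, and no label says so. In single cells, the 2 genes past 2-fold between deleted and WT Ngn3-low cells became 1 as a mean over cells and 7, 5 and 5 within title numbers 1, 2 and 5. The 3 genes between deleted and WT Ngn3-high cells became 1 with 5 CPM added and 7, 9 and 12 within title numbers 1, 5 and 6.

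Directions turned only for fold changes that were not called in the reported fit. Over the fits that left out 1 library, the log2 values for Ins1-RFP over Ngn3-high ran from -0.068 to 0.36 for Gabbr2, from -0.73 (called, without Ins1-RFP replicate 2) to 0.13 for Gria2 and from -0.038 to 0.56 for Grik3. For Ins1-RFP over Ngn3-low they ran from -0.97 to 0.082 for Grik2, from -0.032 to 0.81 (called, without Ins1-RFP replicate 1) for Slc1a4 and from -0.66 to 0.40 for Gabrg3. Gabrg3, near 0 in that comparison, was also at 0.044 with DESeq2 size factors or its test, 0.0077 without a filter and 0.00012 with the replicate block. For single genes, 855 values were unchanged, as fold changes keeping direction and side of the threshold or as shares of cells within their interval. A further 12 shares of cells left their interval, at a threshold of 1 CPM or after thinning. Of the fold change values, counted once for each gene, comparison and setting, 42 lost a call and 12 gained one. Grik4 for Ins1-RFP over Ngn3-high lost its call under most settings, and Gabrb2 in that comparison under several. For Ins1-RFP over Ngn3-low, Grin2b, Gabre, Slc6a11 and Gabra4 also lost theirs under several settings. The cause was not tested. Thinning of cells was chosen after seeing the data. Genes below the floor cannot be told apart from absent ones at this depth.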

Other observations

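Levels of some members differed between bulk and single-cell data of the same gate. Grik5 averaged 157 CPM in bulk Ngn3-high libraries and stood at 7.67 CPM in single WT Ngn3-high cells, a log2 difference of 4.19 that exceeded 99.4% of the 9526 genes compared, whose median was 0.15. In Ngn3-low cells it was at 70.7 CPM in bulk and 7.48 CPM in single cells. Slc17a7 was at 30.97 CPM in bulk and 4.96 CPM in single Ngn3-high cells, and Grin2c at 326 and 73.8 CPM. Gad1, at 15.6 CPM in bulk and 19.1 CPM in single cells, and Grik2, at 19.8 and 25.5 CPM, were close in the 2 assays. Bulk libraries and single cells differ in RNA selection, library kit and amplification, and the part of these was not tested.

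The list of neuron markers summed to 188 and 180.1 CPM in bulk Ngn3-high libraries against 16.05 and 11.5 CPM in Ngn3-low libraries, and to 216 CPM in single WT Ngn3-high cells. In those single cells Rbfox3 was at 74.4 CPM, Elavl4 at 85.8 CPM, Snap25 at 42.6 CPM, Elavl3 at 8.75 CPM and Nefl at 4.76 CPM. Stmn2 was at 0.05 CPM, and Th, Prph and Phox2a were at 0 CPM.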
